A study of Mus musculus with 4 samples.

Results

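The cells described here were 4884 mouse T-cell progenitors from 4 hashed cultures of experiment 1, and the comparison set the cultures with tags 3 and 4 against those with tags 1 and 2, 2 cultures a side. A hashtag is an antibody that carries a short DNA oligo, so that cells of several cultures can be pooled, run together and told apart afterwards. The 8 tag columns of experiment 1 were numbered 1 to 8 in their deposited order. A cell was kept if it had at least 500 genes and under 10% mitochondrial unique molecular identifiers (UMIs, each counting 1 captured RNA molecule). It was given the tag with the highest count if that count was at least 50 and at least 3 times the second highest. Tags 1 to 4 took 1291, 1199, 1181 and 1213 cells, out of 8797 cells with a called tag, 9332 cells that passed the filter, 9967 barcodes of experiment 1 and 20523 barcodes of the whole series. The pairs of tags were chosen from expression values of these cells, so the difference between the sides is given as a description, with no test.

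The series followed early T-cell development from bone marrow progenitors of Bcl2 transgenic mice on OP9-Dll1 stroma, a feeder line that displays the Notch ligand Dll1, with IL-7 and Flt3 ligand at 10 ng/ml each. Its design names an overexpression arm, in which progenitors of mice aged 8 to 10 weeks received a Runx1 or an empty MSCV retrovirus marked by mCherry, harvested on days 4 and 6. It also names a knockout arm, in which progenitors that also carried a Cas9 transgene received E42 vectors with guides against Runx1 and Runx3 (3 guide pairs a gene) or against luciferase, marked by human NGFR and mTurquoise and harvested on days 5 and 8. Vectors went in on day 2, experiment 1 covered 4 to 5 days of culture, and lineage-negative CD45+ cells carrying the vector markers were sorted, pooled and run on Chromium version 3 chemistry. No source used here ties a tag to an arm, vector or day, so each culture is named by its tag alone, and vector, day, arm and founder animals cannot be told apart as the difference between the sides. All of these cells share the Bcl2 transgene and the stroma, and the gene counts do not separate a vector's Runx1 or the transgene's Bcl2 from the mouse genes.

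The tag oligos are shown because they alone define the 4 cultures compared. They are read from the deposited column names, 5′ to 3′ as listed there.
Tag 1: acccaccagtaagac
Tag 2: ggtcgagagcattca
Tag 3: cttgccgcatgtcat
Tag 4: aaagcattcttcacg

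Early T-cell progenitors enter the lineage under Notch signals, which switch on the transcription factors TCF-1 (Tcf7) and GATA3 and later Bcl11b, while regulators of stem and progenitor cells are switched off. Runx1 and Runx3 are DNA-binding factors that act with the partner Cbfb throughout these stages and can both activate and repress. In these early cells, genes of myeloid, dendritic and innate lymphoid fates are still accessible, and PLZF (Zbtb16) is the factor best known from innate-like T cells and innate lymphoid precursors.

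The 4 cultures were sequenced to like depth, with 38067298, 36641740, 29689195 and 31353307 UMIs in tags 1 to 4. The median cell held 29311, 29606, 23994 and 24921 UMIs, so cells of tags 3 and 4 were somewhat shallower, and the median mitochondrial share lay between 4.42% and 4.54%. The highest tag stood far above the rest, with medians of 1368 to 1856 counts against 5 to 7 for the second. Just inside the 3-fold limit lay 53 cells of ratio 3 to 4 with a median of 46110 UMIs, and just outside it 94 cells of ratio 2 to 3 with a median of 45465. The label calls the cells Kit-high Phase 1 cells. Kit, the stem cell factor receptor, had at least 1 UMI in 73.3%, 75.1%, 81.9% and 82.8% of cells, while a UMI of Cd4, a marker of later thymocytes, was found in 0.387% and 0.0834% of cells of tags 1 and 2 and one of Cd8a in 0.232% and 0.0834%. Neither had a UMI in tags 3 and 4, where a count of 0 allows up to 0.254% and 0.247% of cells with a UMI (3 counts over the cells of the tag), which does not limit the cells that express the gene. Binomial and counting intervals below cover counting error only, and no source says that the cultures came from separate animals.

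UMIs were summed over the cells of a tag and scaled to counts per 1000000 (CPM). A gene was compared if its mean over the 4 tags was at least 5 CPM, and called higher or lower if both tags of a side were at least 1.5-fold above both tags of the other. A gene could thus pass the level filter through 1 side alone. Pgam2, Polm, Gal, St8sia6, Itgae, Cdh1, Colq, Bcl11b and Csf1r did so, among others. Of 8702 genes compared out of 31053 listed, 384 were higher in tags 3 and 4 (4.41%) and 176 were lower (2.02%), 6.44% in all. At a 2-fold limit 162 were higher (1.86%) and 64 lower (0.735%). With no limit on the fold, the sides did not overlap for 6913 genes (79.4%), so a mere absence of overlap says little here. The sides chosen are also those of the nearest cultures: over genes, the median absolute log2 difference was 0.047 between tags 1 and 2 and 0.046 between tags 3 and 4, against 0.152 between the sides. At least 1.5-fold apart were 51 genes between tags 1 and 2, 21 between tags 3 and 4 and 736 between the sides. Just inside the limit lay Nab2, higher at 5.44 and 5.40 CPM against 8.45 and 8.16 CPM. Just outside it lay Bcl11a, at 110.2 and 110.3 CPM against 73.6 and 69.8 CPM. The median log2 ratio of all genes compared was 0.04. This median and the shares of 4.41% higher and 2.02% lower are the background for the list counts below. In these sums, fewer cells expressing a gene and less RNA per cell cannot be told apart, and with 2 cultures a side an exact permutation test cannot give a p under 0.333.

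**Figure D1:**
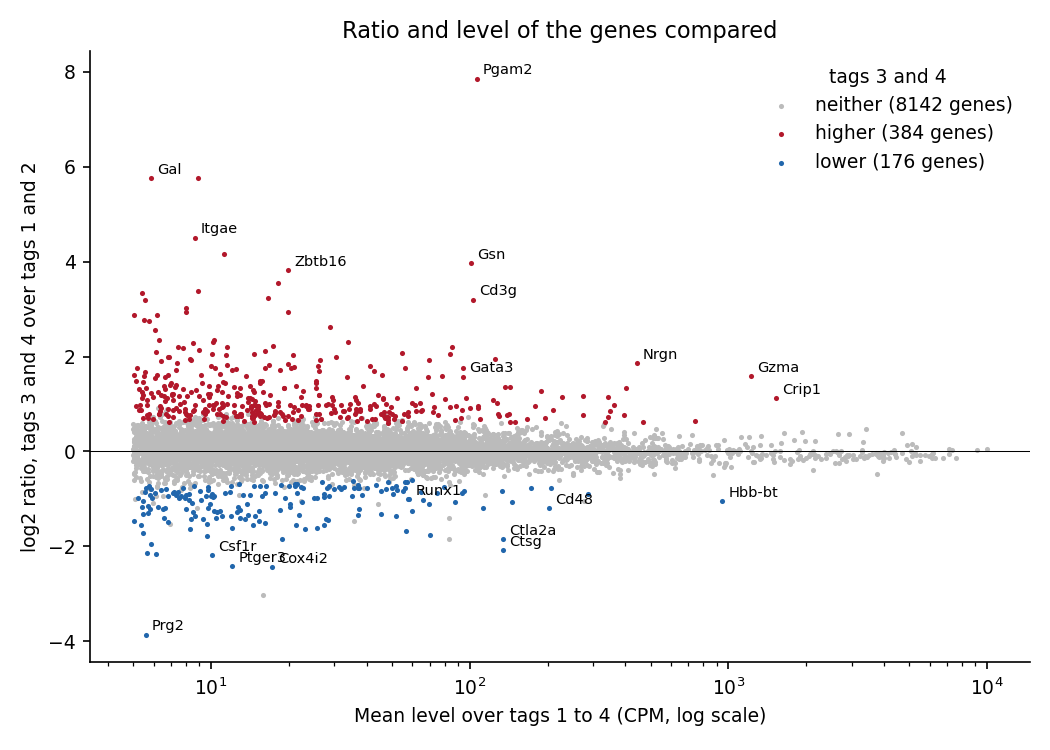
Log2 ratio of tags 3 and 4 over tags 1 and 2 against the mean level in CPM (log scale), 1 point a gene, for the 8702 genes compared. Genes called higher (384, red) or lower (176, blue) lie above or below a dense grey band around 0, and Pgam2 stands alone at 7.86.

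Pgam2, the muscle form of the glycolytic enzyme phosphoglycerate mutase, set the sides apart most. Its level was 0.919 and 0.901 CPM in tags 1 and 2 and 199.6 and 224 CPM in tags 3 and 4. The sides did not come near each other: the nearest tags differed 217-fold (95% counting interval 156 to 312) and the geometric means 232-fold. Far more cells held the transcript. After each cell was thinned to 5000 UMIs, 0.316% and 0.677% of cells in tags 1 and 2 had a Pgam2 UMI (unthinned 2.48% and 2.42%), against 34.0% and 33.6% in tags 3 and 4 (unthinned 50.5% and 52.3%). All 8 cultures shared 1 droplet run, so the shares of 0.316% and 0.677% include any free Pgam2 RNA of the pool; in tags 7 and 8 the share was 0.343% and 0.588%. Within tags 3 and 4 the 5 richest cells held 6.51% and 6.60% of the Pgam2 UMIs. Pgam1, the form that most tissues use, was at 516 and 558 CPM in tags 1 and 2 and 524 and 517 CPM in tags 3 and 4, with overlapping sides.

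Polm, which encodes DNA polymerase mu, an end-joining polymerase, is a neighbour of Pgam2 and was also far apart. Its level was 0.998 and 1.39 CPM in tags 1 and 2 and 20.5 and 21.8 CPM in tags 3 and 4. On chromosome 11 of GRCm38, Dbnl (5788483 to 5800980), Pgam2 (5801637 to 5803796) and Polm (5827860 to 5838832) are consecutive among the compared genes with a RefSeq position. Dbnl, an actin-binding adaptor, was called higher too, at 119 and 117 CPM against 182 and 180.3 CPM. The genes compared on either flank were not called: Urgcp was at 7.01 and 5.87 CPM against 6.94 and 6.67 CPM, and Pold2, a replicative polymerase subunit, at 71.3 and 70.6 CPM against 72.8 and 73.5 CPM. The call thus covered 3 consecutive genes with scaling to total UMIs. Dbnl lost it under TMM and DESeq2 scaling, at 1.46-fold between the nearest tags in both, while Pgam2 and Polm kept it.

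The promoters of this neighbouring pair are shown with those of 2 genes lower in tags 3 and 4, picked after the search as lower genes that hold the motif letters. Each is the 250 bases before the start that the promoter table lists for the gene, 5′ to 3′ on the gene's strand, from RefSeq on GRCm38.p6. For Polm and Tspan32 that start lies inside the outermost bounds of the gene, so the window overlaps the annotated gene. Capitals mark the hexamer TGTGGT or its other strand ACCACA, the core letters of the motif that Runx proteins bind.
Pgam2, chr11:5803797-5804046, minus strand: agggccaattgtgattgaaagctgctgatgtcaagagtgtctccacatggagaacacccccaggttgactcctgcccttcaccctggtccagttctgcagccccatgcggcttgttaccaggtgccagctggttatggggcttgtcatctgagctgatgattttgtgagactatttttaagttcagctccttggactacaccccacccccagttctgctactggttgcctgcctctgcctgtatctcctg
Polm, chr11:5838017-5838266, minus strand: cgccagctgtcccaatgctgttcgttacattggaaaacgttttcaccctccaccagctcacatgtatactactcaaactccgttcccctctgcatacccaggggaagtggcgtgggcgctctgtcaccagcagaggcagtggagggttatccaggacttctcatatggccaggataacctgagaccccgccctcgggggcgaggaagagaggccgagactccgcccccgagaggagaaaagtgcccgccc
Ctsg, chr14:56102575-56102824, minus strand: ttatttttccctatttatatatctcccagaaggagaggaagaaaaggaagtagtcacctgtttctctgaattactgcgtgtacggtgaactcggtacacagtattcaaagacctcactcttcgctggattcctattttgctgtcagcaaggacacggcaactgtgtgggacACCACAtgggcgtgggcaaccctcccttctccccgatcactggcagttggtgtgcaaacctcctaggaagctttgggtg
Tspan32, chr7:143004796-143005045, plus strand: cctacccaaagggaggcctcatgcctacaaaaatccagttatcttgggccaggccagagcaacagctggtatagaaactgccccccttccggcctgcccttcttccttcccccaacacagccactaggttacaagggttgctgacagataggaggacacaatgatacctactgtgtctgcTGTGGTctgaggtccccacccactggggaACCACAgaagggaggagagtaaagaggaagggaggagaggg

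The windows of Pgam2 and Polm hold no such hexamer, that of Ctsg holds 1 and that of Tspan32 holds 2. This pair is not typical. Of the 15 genes with the largest difference each way, those with exactly 1 promoter listed were read, genes on chromosome 18 such as Csf1r being left out. Of these, 3 of 10 lower and 1 of 9 higher genes held the hexamer. Exactly 1 promoter was in the RefSeq table for 228 of the 384 higher genes and 103 of the 176 lower genes, and genes with more were left out. The hexamer, on either strand, was in 27 of the 228 (11.8%) and 14 of the 103 (13.6%). It was in 587 of 5517 such genes compared (10.6%) and 3260 of all 22862 genes with 1 promoter listed (14.3%). The letters were therefore about as frequent before called genes as elsewhere, and a match is a description of the letters only.

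The next genes by the difference between the nearest tags were of mixed function. Gal, the neuropeptide galanin, was at 0.236 and 0.191 CPM in tags 1 and 2 and 12.1 and 10.9 CPM in tags 3 and 4. St8sia6, a sialyltransferase, was at 0.236 and 0.437 CPM against 17.0 and 17.9 CPM. Itgae, the integrin CD103 that binds E-cadherin, was at 0.604 and 0.873 CPM against 15.6 and 17.5 CPM. These 3 genes were close to absent in tags 1 and 2, where 7 to 32 UMIs stand behind each value, so their folds are loosely fixed: between the nearest tags 46.1 (24.0 to 102), 38.9 (23.7 to 68.5) and 17.8 (12.4 to 26.4). Cdh1, E-cadherin itself, was at 2.84 and 2.89 CPM against 33.8 and 33.1 CPM. Gsn, the actin-severing protein gelsolin, was at 11.2 and 13.05 CPM against 195 and 185 CPM. A Gsn UMI was found in 4.74% and 6.52% of thinned cells of tags 1 and 2 and in 55.3% and 53.6% of those of tags 3 and 4, so here too many more cells held the transcript in tags 3 and 4.

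Other genes with large upward differences lay between 5.91-fold and 9.03-fold at the nearest tags, apart from Zbtb16 and Cd3d, described below with their groups. Among them were Colq (a collagen-like anchor of acetylcholinesterase), Myo1e (an unconventional myosin), Prss30 (a serine protease), Mybpc3 (the cardiac myosin-binding protein) and Cd300lf (an immune receptor). Colq, for one, was at 1.76 and 1.39 CPM against 15.9 and 16.6 CPM.

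**Figure D2:**
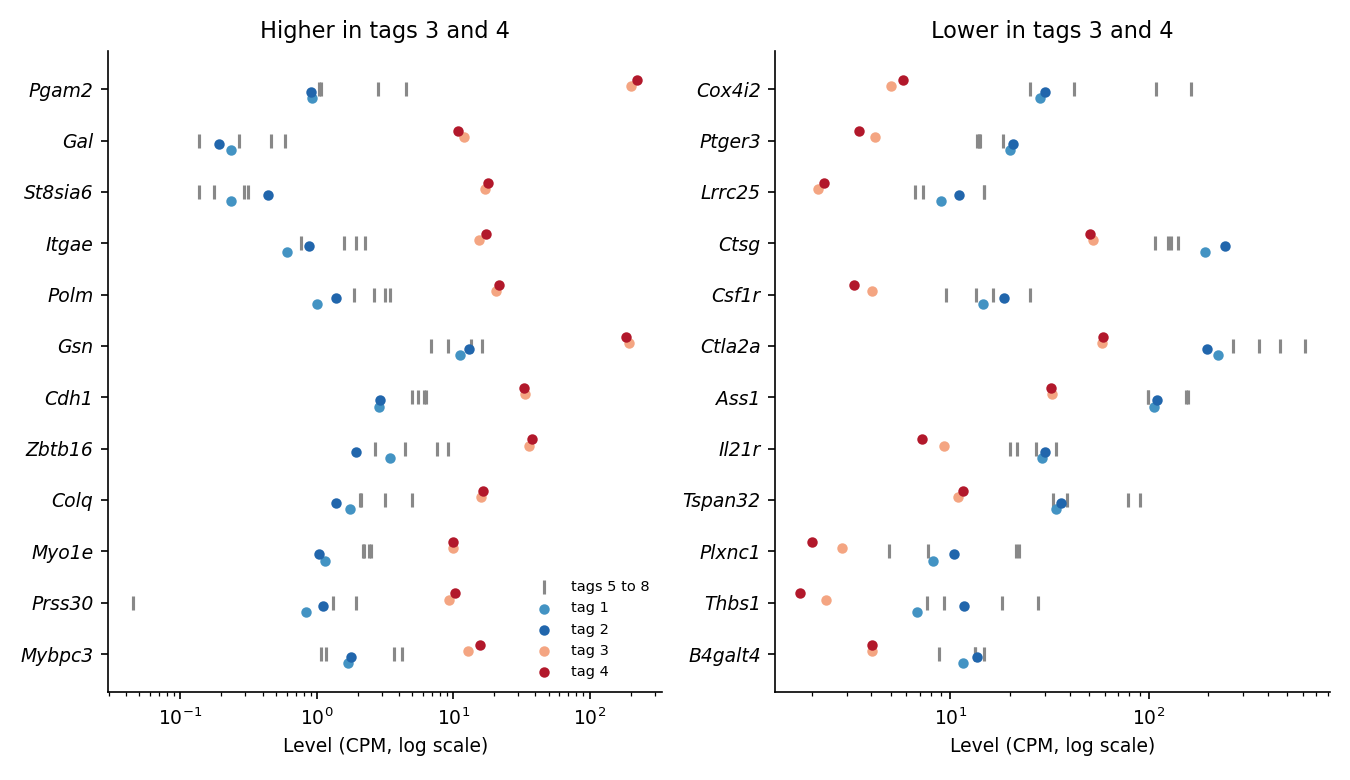
Level in CPM (log scale) of the 12 genes with the largest difference between the nearest tags in each direction, in tags 1 and 2 (blue), tags 3 and 4 (red shades) and tags 5 to 8 (grey bars; a level of 0 is not drawn). Pgam2 sits near 1 CPM in tags 1 and 2 and near 200 in tags 3 and 4, and Cox4i2 falls from about 29 to about 5 CPM.

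Among T-lineage regulators, 9 of the 13 genes compared were higher in tags 3 and 4 and none was lower. The median log2 ratio was 0.72, beside 0.04 over all genes. Of the 19 listed genes 6 were too low to compare, and 2 of the 13 passed through 1 side alone, Bcl11b among them. Bcl11b, the factor that marks commitment to the T lineage, was at 6.09 and 3.33 CPM in tags 1 and 2 and 34.7 and 35.0 CPM in tags 3 and 4. Its thinned share of cells was 1.89% and 1.35% against 12.6% and 13.3%. Gata3 was at 50.1 and 44.6 CPM against 141 and 142 CPM, and the sides were 2.99-fold apart. Tcf7 was at 118 and 103 CPM against 258 and 273 CPM, a 2.42-fold difference. Myb, a progenitor and thymocyte factor, was at 266 and 251 CPM against 422 and 431 CPM. Tox, Tcf12, Satb1, Gfi1 and Ets2 were higher by log2 ratios of 0.66 to 0.83, and Ikzf1, Ikzf2, Tcf3 and Ets1 lay above tags 1 and 2 without being called. Gfi1 and Satb1 lost the call under TMM and DESeq2 scaling, which left 7 of 13, Tox, Ets2 and Gfi1 lost it after thinning, and Ets2 also lost it without tag 3.

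Genes of the T-cell receptor complex and its signalling were mixed. Of 13 compared out of 24 listed, 5 were higher and 1 lower, with a median log2 ratio of 0.61. Of the 13, 1 passed through 1 side alone, which was Cd3d. Cd3g was at 29.6 and 13.5 CPM in tags 1 and 2 and 174 and 194 CPM in tags 3 and 4. Cd3d was at 4.68 and 2.16 CPM against 28.3 and 31.2 CPM. Both encode chains of the CD3 complex, and they lie side by side on chromosome 9. Cd3e, the third chain of that locus, was too low to compare, at 1.31 and 0.846 CPM against 7.21 and 5.80 CPM. Lck, the kinase of the proximal receptor, was at 90.7 and 78.1 CPM against 173 and 170.0 CPM, and Thy1 and Prkcq were higher by 0.86 and 0.96 on the log2 scale. Dntt, the polymerase that adds untemplated bases to receptor junctions, went the other way, at 15.1 and 15.5 CPM against 6.60 and 6.16 CPM. Ptcra, Rag1 and Rag2 were too low to compare.

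The innate lymphoid and cytotoxic list showed 6 of 11 genes compared higher and none lower, with a median of 0.84. Of its 28 genes 17 were too low, and 2 of the 11 passed through 1 side alone, Zbtb16 among them. Zbtb16 was at 3.47 and 1.94 CPM in tags 1 and 2 and 36.0 and 37.8 CPM in tags 3 and 4, a 14.2-fold difference. Its thinned share was 1.82% and 0.508% of cells against 15.9% and 15.9%. Gzma, the protease granzyme A, was at 664 and 563 CPM against 1816 and 1854 CPM. Fcer1g, an adaptor of Fc and NK receptors, was at 217 and 212 CPM against 475 and 470 CPM. Nfil3, a factor required by innate lymphoid cells, was at 6.02 and 4.91 CPM against 13.1 and 15.2 CPM, and Ctsw and Cd160 were higher by 1.40 and 0.84 on the log2 scale. Eomes, Tbx21 and Ncr1, the defining genes of mature natural killer cells, and Il17a, Il13 and Ifng were too low to compare. Id2, which restrains E proteins in innate lineages, overlapped between the sides, at 32.6 and 32.0 CPM against 40.3 and 32.6 CPM.

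**Figure D3:**
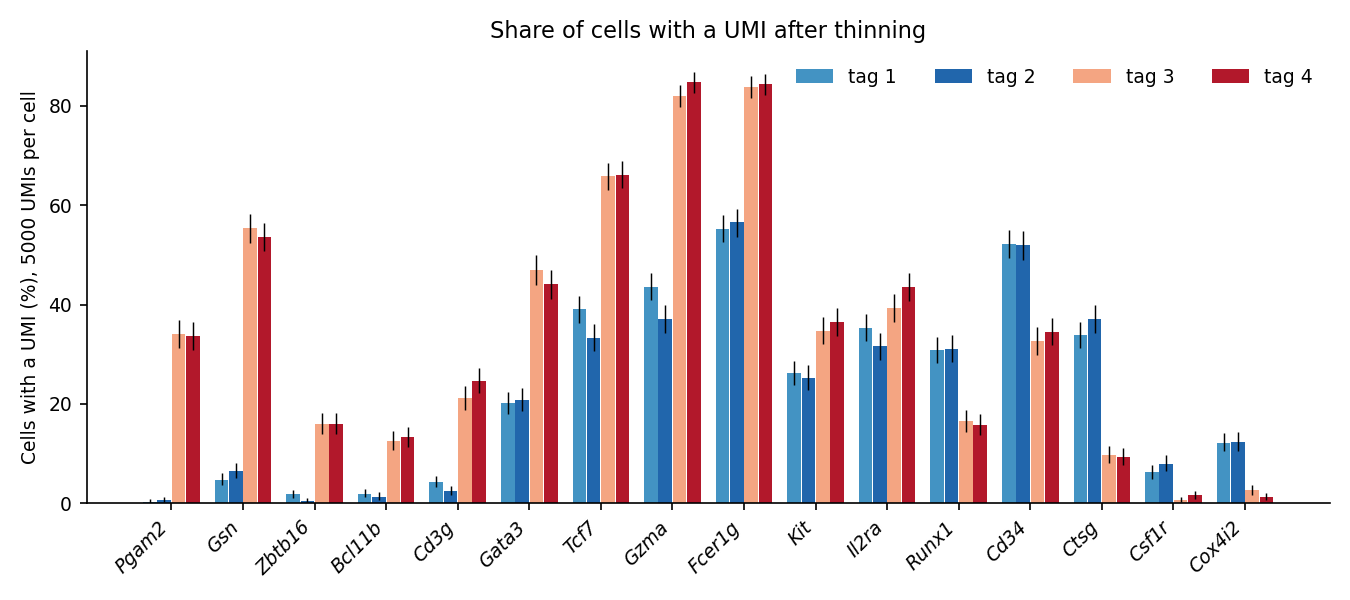
Share of cells with at least 1 UMI of a gene after thinning to 5000 UMIs a cell, by tag, with exact 95% binomial intervals that cover counting error only. For Pgam2, Gsn, Zbtb16 and Bcl11b the bars of tags 1 and 2 are close to 0 beside those of tags 3 and 4, while Runx1, Cd34, Ctsg, Csf1r and Cox4i2 run the other way.

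Of the Runx family, Runx1 and Runx2 were lower in tags 3 and 4. Runx1 was at 76.9 and 79.4 CPM in tags 1 and 2 and 38.2 and 39.3 CPM in tags 3 and 4, a 2.02-fold difference. Runx2 was at 27.6 and 27.4 CPM against 13.8 and 11.8 CPM. Runx3 was at 146 and 143 CPM against 115 and 118 CPM; the sides did not overlap, but the gap was under the 1.5-fold limit. Cbfb, the shared partner, was at 64.5 and 60.8 CPM against 69.5 and 68.1 CPM. Tle3, a corepressor that Runx factors recruit, was higher by 0.64 and lost that call under TMM and DESeq2 scaling, HTODemux tag calls and the stricter cell filter. Runx1 counts include any vector transcript that the 3′ reads match, and a guide need not lower the RNA of its target, so these levels name no condition.

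In the Notch pathway, Hes1, a direct Notch target, was higher, at 54.2 and 48.1 CPM against 112 and 108 CPM. Of other targets, Myc was called lower, at 72.7 and 72.6 CPM against 47.0 and 48.0 CPM. Nrarp and Dtx1 were not called. Nrarp was called lower without tag 2 and on mean CPM over cells. Notch1 was at 67.8 and 65.9 CPM against 83.7 and 82.8 CPM. Of the 7 genes compared, 1 was higher and 1 lower, with a median of -0.24. Myc lost its call after thinning and under a stricter cell filter.

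Progenitor regulators split evenly, with 4 higher and 4 lower of 18 compared and a median of -0.06. Lower were Lmo2, a LIM-domain cofactor of stem cells, at 68.8 and 80.4 CPM against 32.2 and 25.8 CPM, Mef2c, at 114 and 124 CPM against 60.7 and 53.8 CPM, Id1, at 19.1 and 20.5 CPM against 7.61 and 8.20 CPM, and Cebpa, the driver of granulocyte fate, at 6.38 and 8.95 CPM against 4.11 and 3.89 CPM. Cebpa lost the call without tag 2 and after thinning. Higher were Mycn, at 29.6 and 26.9 CPM against 55.3 and 53.6 CPM, Zfpm1, a GATA cofactor, at 29.9 and 27.0 CPM against 56.8 and 57.1 CPM, Gfi1b and Sox4, of which Sox4 lost the call under TMM and DESeq2 scaling. Spi1, which encodes PU.1, overlapped between the sides, at 164 and 182 CPM against 176 and 164 CPM, as did Hhex, Lyl1 and Hoxa9.

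Surface receptors of stage and cytokine response were mostly lower where they were called: 6 of 19 compared were lower and 1 higher, with a median of -0.09. Csf1r, the macrophage colony-stimulating factor receptor, was at 14.6 and 18.6 CPM in tags 1 and 2 and 4.01 and 3.25 CPM in tags 3 and 4. Cd34, the stem and progenitor sialomucin, was at 170.0 and 172 CPM against 98.0 and 93.1 CPM. Cd48 was at 282 and 279 CPM against 126 and 119 CPM, and Cd93 and Csf2rb were lower by 1.45 and 1.55 on the log2 scale. Ly6a, which encodes Sca-1, was at 146 and 169 CPM against 65.4 and 71.5 CPM. Cd24a, which marks the move from early progenitor to committed thymocyte, was higher, at 151 and 145 CPM against 266 and 276 CPM. Il2ra, the CD25 chain that marks the DN2 stage, overlapped, at 191 and 162 CPM against 172 and 207 CPM. Kit was at 60.7 and 59.5 CPM against 84.1 and 88.9 CPM, under the limit for a call.

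Because Il2ra separates early from later Phase 1 cells, the comparison was repeated within cells with and without an Il2ra UMI after thinning, a choice made after seeing the data. Cells with one numbered 447, 373, 454 and 517 in tags 1 to 4. Among them 338 of 8691 genes compared were higher and 159 lower, and 268 and 122 of these were also called over all cells. Among cells without one, 396 of 8685 genes compared were higher and 174 lower, with 345 and 154 shared. Pgam2 was at 1.59 and 1.91 CPM against 290.0 and 300.0 CPM with Il2ra, and at 0.564 and 0.439 CPM against 143 and 165 CPM without. Csf1r, at 2.88 and 3.12 CPM against 1.05 and 0.957 CPM with Il2ra and at 20.8 and 25.7 CPM against 5.89 and 4.97 CPM without, lay mainly in the cells that lacked an Il2ra UMI. Tcf7 differed by 0.68 on the log2 scale in cells with an Il2ra UMI and by 1.75 in cells without. Of the T-lineage list, 4 of 14 genes were called among cells with an Il2ra UMI (Bcl11b, Gata3, Lef1 and Tcf7), and Myb, Tox, Tcf12, Satb1, Gfi1 and Ets2 were not. Among cells without one, 9 of 12 were called.

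The largest downward differences were smaller than the upward ones. Cox4i2, a subunit of cytochrome oxidase usually tied to low oxygen, was at 28.3 and 29.9 CPM in tags 1 and 2 and 5.02 and 5.77 CPM in tags 3 and 4. Id1, named above, is its neighbour on chromosome 2. Ptger3, a prostaglandin E2 receptor, was at 20.0 and 20.7 CPM against 4.18 and 3.45 CPM. Ctla2a, a cathepsin inhibitor, was at 224 and 196 CPM against 58.5 and 58.6 CPM. Ass1, of arginine synthesis, was at 106 and 110.3 CPM against 32.6 and 32.1 CPM, and Ada, adenosine deaminase, was at 31.4 and 31.9 CPM against 11.2 and 10.4 CPM. Il21r and Ifngr2, receptor chains for interleukin 21 and interferon gamma, were 3.11-fold and 2.72-fold apart at the nearest tags. Tspan32, a tetraspanin, was at 34.1 and 35.9 CPM against 10.9 and 11.6 CPM. Its neighbour Cd81, another tetraspanin, was at 38.8 and 42.1 CPM against 13.9 and 16.3 CPM.

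Prg2, an eosinophil granule protein, had the lowest ratio of any gene called (-3.86), yet it was named after its values were seen, because the limit was only just passed. Its levels were 0.315, 21.7, 0.202 and 0.160 CPM in tags 1 to 4, and 5 cells held 99.4% of its UMIs in tag 2. The value therefore describes a few cells of 1 culture.

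Homing and adhesion genes had Itgae higher and Ccr2, Cd81 and Itgal lower among 18 compared, beside 4.41% higher and 2.02% lower of all genes. Ccr2, a chemokine receptor of monocytes and early progenitors, was at 74.6 and 79.4 CPM against 39.1 and 37.9 CPM. Itgal, the alpha chain of LFA-1, was at 71.0 and 70.4 CPM against 37.9 and 41.1 CPM. Most of the list stayed within the limit, with 14 of 18 not called.

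Pgam2 stood apart from most of the glycolytic list. Of 19 glycolytic genes compared, 4 were higher (Pgam2, Ldhb, Slc2a3 and Bpgm), Pfkl was lower, and the median was -0.21. The shares over all genes were 4.41% higher and 2.02% lower. Aldoa, whose symbol stands on more than 1 row, was left out. Bpgm lost its call under TMM scaling and after thinning. Ldhb, the heart form of lactate dehydrogenase, was at 11.4 and 12.04 CPM against 31.2 and 30.3 CPM. Ldha was at 1061 and 1072 CPM against 888 and 904 CPM, and Gapdh at 2781 and 2782 CPM against 2372 and 2346 CPM, both under the limit for a call.

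Genes of the cell cycle differed little. None of 30 S-phase genes and none of 30 genes of G2 and mitosis was called, with log2 ratios from -0.16 to 0.22 and from -0.11 to 0.44. Of 15 cyclins, kinases and inhibitors, E2f2 was higher, at 8.01 and 8.46 CPM against 17.1 and 15.6 CPM, and Ccnd1, which encodes cyclin D1, was lower, at 45.5 and 46.7 CPM against 24.7 and 23.3 CPM. None of 9 Bcl2 family genes was called. Bcl2 itself, whose counts would include any transgene RNA that the reads match, was at 76.2 and 68.8 CPM against 109.7 and 113 CPM. Of 12 p53 targets 1, Trp53inp1, was higher. The interferon list had Bst2 and Usp18 higher and Gbp2 and Iigp1 lower among 20 compared. The early response list had Egr1 higher and Fosb and Zfp36 lower among 13, of which none was called after thinning. Beside these counts, 4.41% of all genes compared were higher and 2.02% lower.

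**Figure D4:**
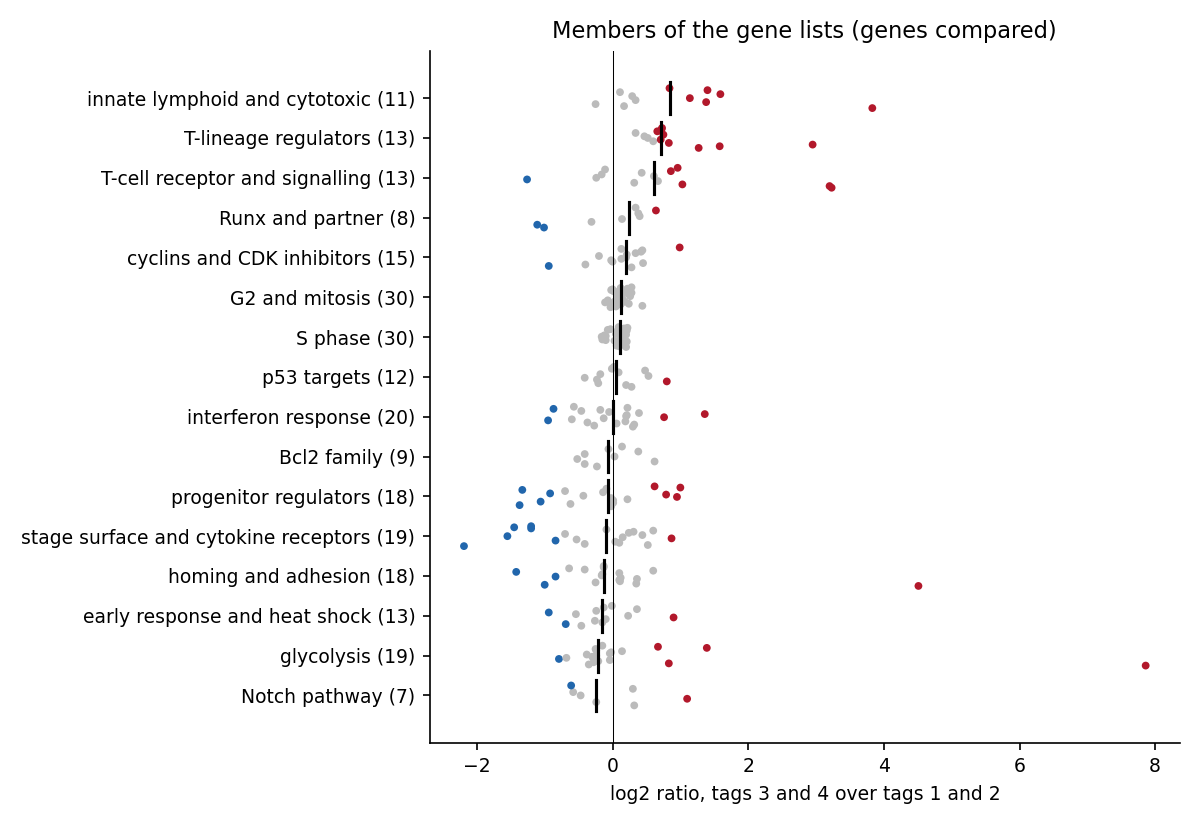
Log2 ratio of tags 3 and 4 over tags 1 and 2 for the members of 16 gene lists, 1 point a gene, red where called higher, blue where called lower and grey otherwise; black bars are list medians and the number of genes compared is in brackets. T-lineage and innate lymphoid genes sit to the right, with medians of 0.72 and 0.84, and cell cycle genes lie tightly around 0.

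Markers of other cell types moved with the sides. Granulocyte and monocyte markers had 4 of 13 genes compared lower and none higher, with a median of -1.41, and 3 of the 13 passed through 1 side alone. Ctsg, the granule protease cathepsin G, was at 192 and 243 CPM in tags 1 and 2 and 52.3 and 50.3 CPM in tags 3 and 4. Mpo, myeloperoxidase, was at 58.1 and 114 CPM against 34.6 and 19.04 CPM, and lost its call under a stricter cell filter. S100a8 and S100a9 of mature granulocytes stood high in tag 2 alone, at 256 and 254 CPM, and 66.7% of S100a8 UMIs there lay in 5 cells. Without tag 1 the list had 13 lower of 14, with a median of -2.09. Without tag 2 it had 4 lower and 1 higher of 11, with a median of -0.67, and without tag 3 it had 9 lower of 14, with a median of -1.89. Cells with at least 5 UMIs over 10 defining markers made up 49.3% and 54.0% of tags 1 and 2 and 19.9% and 18.2% of tags 3 and 4. These shares, and those of the other marker sets below, count unthinned UMIs, and cells of tags 1 and 2 were deeper. The 5 UMIs can come from 1 marker alone, so a cell counted here need not be of that type. Summed over those 10 markers the level was 610.3 and 1532 CPM against 400.1 and 281 CPM.

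The dendritic markers that were called went the opposite way. The class II genes H2-Aa, H2-Ab1, H2-Eb1 and their chaperone Cd74, and Bst2, were higher, 5 of 7 compared. The other 2 were not called, and log2 ratios in the list ran from -0.7 to 1.77. Irf8, a member of the list, was called lower without tag 1. The 5 defining markers summed to 139 and 200 CPM in tags 1 and 2 and 489 and 464 CPM in tags 3 and 4. In tags 5 to 8 they summed to 140, 887, 140 and 745 CPM. H2-Aa was at 20.0 and 31.8 CPM against 88.2 and 84.3 CPM, and Cd74 was at 66.2 and 97.3 CPM against 211 and 197 CPM. Cells with at least 5 UMIs over 5 defining dendritic markers were 15.3% and 17.5% of tags 1 and 2 and 36.1% and 35.9% of tags 3 and 4, and Siglech, Xcr1 and Clec9a were too low to compare. Defining markers of mature T cells were at 1.47 and 2.40 CPM in tags 1 and 2 and at 0 in tags 3 and 4. Those of mature innate lymphoid cells were at 0.873 to 3.13 CPM. Those of the erythroid and B lineages were at 2.13 to 3.68 and 23.0 to 31.8 CPM. All listed markers of mature innate lymphoid cells summed to 735.8 and 626.8 CPM against 1973 and 2010 CPM. Of these, Gata3 and Gzma were called higher and Ccl5 lower. Erythroid and megakaryocyte markers summed to 1409 and 1255 CPM against 676.2 and 765.5 CPM, with Itga2b higher and Hbb-bt lower. In the mature T list, at 969.4 and 915.2 CPM against 1056 and 1164 CPM, Trbc1 was called higher. The 4 defining markers of mast cells and basophils summed to 56.4 and 57.6 CPM in tags 1 and 2 and 20.7 and 42.3 CPM in tags 3 and 4. Cells with at least 5 UMIs of them were 4.57% and 4.42% against 2.20% and 1.73%. The full list of 10 went the other way, at 154.5 and 131.5 CPM against 213.9 and 257.4 CPM. Of its 2 genes compared, Cpa3 was called higher, with a log2 ratio of 1.35. Stromal markers reached 65.5 CPM in tag 4 and 1.24 to 9.26 CPM in tags 1 to 3. Cxcl12, a stromal chemokine, passed the call at 0.736 and 2.24 CPM against 5.05 and 14.95 CPM, with 96.8% of its tag 4 UMIs in 5 cells. It lost the call without tag 4, and its log2 ratio was -0.11 without the 5 top cells of each tag.

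When every cell with at least 5 UMIs of any such marker set was left out, which took 47.8% to 62.1% of the cells of a tag, 321 genes were higher and 181 lower, and 269 and 141 of them were also called over all cells. The T-lineage list then had 6 higher of 14, the innate list 6 higher and 1 lower of 11, and the progenitor list 0 higher and 4 lower of 17. Bcl11b kept a log2 ratio of 2.25 (2.95 over all cells), Gzma 0.99 (1.59), Ctsg -1.37 (-2.07) and Csf1r -1.45 (-2.19), of which Csf1r was no longer called. Ctsg is itself among the markers by which cells were left out. The T-cell receptor list had 4 higher and 1 lower of 16, and Thy1 and Prkcq lost the call. H2-Aa, H2-Ab1, H2-Eb1 and Cd74 came to log2 ratios of 0.24 to 0.86, and none of them was called, in cells chosen for low levels of those same genes. Of 6 class II family genes compared here, H2-Ob was called lower and none higher. Over all cells H2-Ob was lower too and 7 of 10 were higher, where 3 of the 10 passed through 1 side alone. The part of the cells left out in the other differences was not tested.

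The sides hold no culture of tags 5 to 8 of the same run. They were set with earlier results of these data known, so tags 5 to 8 serve as description only. By likeness over all genes they paired as 5 with 6 and 7 with 8. Of the 384 genes higher in tags 3 and 4, tags 5 and 6 lay between the sides for 293 and 291, and tags 7 and 8 lay between them for 160 and 160. For 186 and 187 of these genes tags 7 and 8 were at or under tags 1 and 2. Of the 176 lower genes, tags 7 and 8 were at or above tags 1 and 2 for 123 and 130. All 4 tags went at or past tags 3 and 4 for 4 of the higher genes and 0 of the lower ones. These genes were picked for a wide gap between the sides, which in itself favours places between them. The same counts were not made over all genes compared, so they describe the called genes only.

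Comparing tags 7 and 8 with tags 5 and 6 by the same rule gave 2.66% of genes higher and 1.22% lower. Over the 8546 genes compared in both it gave 1.81% higher and 1.25% lower, and no culture is shared with the first comparison. Of 321 genes higher in tags 3 and 4 and compared in both, 60 were lower in tags 7 and 8 (18.7%; 56.1% of all genes lower there) and 12 were higher. Of 174 lower genes, 52 were higher in tags 7 and 8 (29.9%; 33.5% of all genes higher there) and 3 were lower. Cox4i2 was at 25.2, 41.9, 109.4 and 164 CPM in tags 5 to 8, and Runx1 at 96.5, 85.8, 241 and 210.0 CPM. Cd81 was at 34.4, 28.7, 196 and 158 CPM. Cd3g was at 132, 57.4, 16.7 and 13.6 CPM, and Gzma at 2050.0, 1763, 630.5 and 741 CPM. Pgam2 was at 2.83, 4.50, 1.08 and 1.03 CPM, so all 4 were far under tags 3 and 4. This count describes opposite calls in separate cultures, and what tags 7 and 8 received is unknown as well.

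**Figure D5:**
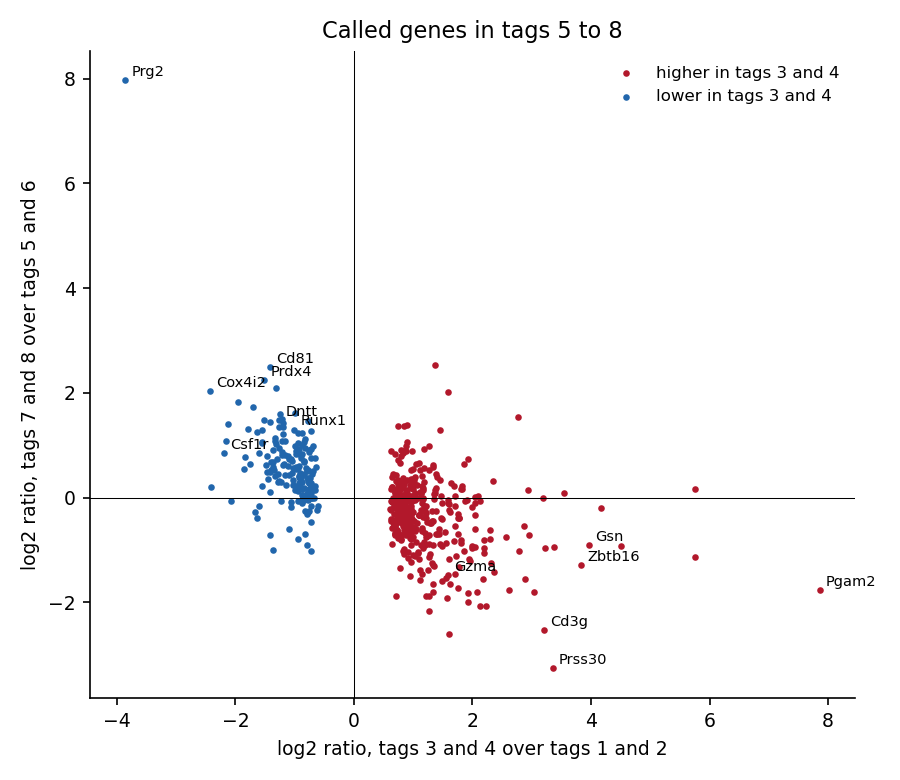
Log2 ratio of tags 7 and 8 over tags 5 and 6 against that of tags 3 and 4 over tags 1 and 2, for the 560 genes called between the latter. Of the genes compared in both, 221 of 321 higher ones (red) lie under 0 on the vertical axis and 142 of 174 lower ones (blue) above it. Over all 8546 genes compared in both, most of them not drawn, 4676 were under 0 and 3870 above it.

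Experiment 2 was a separate droplet run with the same 8 oligos, whose tags need not mark the same conditions. Pgam2 was at 2.22, 318, 9.91, 480.5, 4.58, 2.62, 4.08 and 3.73 CPM in its tags 1 to 8. Its tags 2 and 4 thus stood far above the other 6. Zbtb16 was at 1.28, 21.3, 4.83, 29.8, 2.83, 0.861, 6.04 and 3.95 CPM, again highest in tags 2 and 4. Cox4i2 was at 38.2, 9.60, 66.9, 20.5, 57.5, 175, 28.4 and 130 CPM, lowest in those same tags. Over the 384 genes higher in experiment 1, tag 2 of experiment 2 was among the 2 highest of its 8 for 264 and tag 4 for 350, against 33.2% and 45.1% of all genes compared. Tag 7 came next with 89 genes (23.2%), beside 23.4% of all genes. Over the 176 lower genes, tags 2 and 4 were among the 2 lowest for 117 and 132, against 20.3% and 19.7% of all genes, and tag 7 for 77 (43.8%, beside 35.9% of all genes). Runx1 was at 57.5, 33.7, 52.9, 39.5, 58.8, 102, 86.7 and 121 CPM there, and was lowest in tags 2 and 4. No group was formed from these tags and no test was run on them.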

How the data were processed

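Single-cell RNA and hashtag libraries of experiment 1 were analysed, and experiment 2 served for comparison. The deposited matrices hold UMI counts per gene and barcode, and the deposited tag tables hold a count per barcode and tag, whether of molecules or of reads not being given in the sources used here. The submitters' processing notes name Cell Ranger 3.0.0 and mm10; how barcodes were filtered before deposit is not given in the sources used here. Cells were filtered and assigned to tags as described above. The 3-fold rule left out cells with a pair of strong tags (535 cells passed the filter without a tag), no doublet caller was run, and doublets within a tag remain. The experiments' barcode lists shared 39 barcodes. Counts were summed per tag and scaled to CPM, a tag under 3 UMIs being taken at 3. A log2 ratio is the difference of the mean log2 CPM of the sides. No test was run, because the sides, members and gene lists were chosen with earlier results of these data known. The genes named are the 15 with the largest difference between the nearest tags in each direction and the members of the lists; Prg2, the genes beside Pgam2 and those at the fold limit were chosen after their values were seen. Some of these genes are not reported here. Rows whose symbol was shared (71) stayed in the counts over all genes and were left out of the list, family, neighbour and promoter counts. Positions and promoters came from RefSeq on GRCm38.p6. Alternatives were other tag rules, cell filters, scalings (edgeR TMM, DESeq2 size factors), levels, thinning, leaving out each tag, and cells by Il2ra. The calling step was tested on simulated data. Python 3.11.15, numpy 2.4.6, scipy 1.17.1, pandas 2.3.3, R 4.3.3, edgeR 4.0.16, DESeq2 1.42.0 and Seurat 5.3.0 were used.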

Additional observations from a re-analysis of the deposited data

How the results depend on the processing

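The counts of 384 higher and 176 lower genes moved most with the level and fold required: at a mean of at least 1 CPM they were 690 and 354, at 20 CPM 160 and 77, and at 2-fold 162 and 64. Leaving out 1 tag at a time gave 397 to 483 higher and 181 to 232 lower. TMM gave 335 and 206 and DESeq2 size factors 339 and 202, which moved the median of all genes from 0.04 to -0.02 and -0.01. Stricter tag calls, HTODemux, a stricter cell filter, every barcode, mean CPM over cells and thinning gave 369 to 408 higher and 163 to 196 lower. Without cells with at least 5 UMIs of a marker set of other cell types the counts were 321 and 181. Of 1536 alternative values for 96 called genes, 53 moved by over 1.5 times, 2 of which reversed, both of Cxcl12. Its log2 ratio of 2.76 became -1.08 without the cells holding such markers and -0.11 without its 5 richest cells in each tag. No paired analysis was possible because the tags carry no replicate number.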

Other observations

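Gene families outside the lists were read by symbol, and the genes named in these paragraphs were chosen after their values were seen. All 5 Gimap genes compared, GTP-binding proteins of lymphocytes that lie in 1 cluster, were higher in tags 3 and 4, with a median log2 ratio of 1.22. Of the 5, 1 passed the level filter through 1 side alone. Gimap9 was at 35.7 and 34.3 CPM in tags 1 and 2 and 100.9 and 104.5 CPM in tags 3 and 4. Of 11 tubulin genes 2 were higher: Tuba8, at 19.4 and 17.3 CPM against 60.3 and 67.1 CPM, and Tubb3, at 6.25 and 5.19 CPM against 24.2 and 23.0 CPM. No gene was called among 80 cytosolic ribosomal, 13 mitochondrially encoded and 34 histone genes. Of 73 nuclear genes of the respiratory chain only Cox4i2 and Cox6a2 were lower, the latter at 20.8 and 21.7 CPM against 9.16 and 7.34 CPM. That count lies near the share over all genes, where 4.41% were higher and 2.02% lower. Hbb-bt, an adult beta globin, was lower, at 1352 and 1201 CPM against 570.2 and 659.8 CPM, and was not called among cells without an Il2ra UMI.

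Some abundant genes also differed. Nrgn, a calmodulin-binding protein, was at 202.0 and 181.3 CPM in tags 1 and 2 and 681.0 and 705.4 CPM in tags 3 and 4. Ly6d, a surface marker of lymphoid priming, was at 50.4 and 52.9 CPM against 197.7 and 198.0 CPM. Jak1, a kinase of cytokine receptors, was at 145.2 and 138.7 CPM against 306.7 and 322.7 CPM. Ptpn18, a phosphatase, was lower, at 378.4 and 368.4 CPM against 204.7 and 198.7 CPM. Itga2b, the platelet integrin CD41, was at 36.8 and 33.5 CPM against 88.6 and 89.4 CPM.

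Of 4843 pairs of neighbouring genes within 100 kb, 513 had at least 1 member called and 46 had both, where 6.44% of all genes compared were called; whether 46 exceeds chance was not tested. Both were higher in 35 pairs, both lower in 7, and the calls were opposite in 4. Fgf3 higher beside Ccnd1 lower was an opposite pair. The counting strand is not given in the sources used here, and how UMIs of overlapping neighbours were assigned was not checked.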
